A study of Mus musculus with 12 samples.

Results

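The liver holds immune cells of many kinds among its hepatocytes, and 42 genes that mark those cells were followed in RNA of whole mouse liver after a ketogenic diet. The genes were chosen by name, as known markers, from the 27105 genes of the deposited count table. They comprise 14 genes of Kupffer cells and other macrophages, 4 genes linked to lipid-associated macrophages, 4 of monocytes, 3 of dendritic cells, 4 of T cells, 4 of natural killer (NK) and cytotoxic cells, 4 of B cells, 4 of neutrophils and Ptprc, the leukocyte marker CD45. Whole-liver RNA came from 6 mice on a ketogenic diet, in which fat replaces most carbohydrate, and from 6 mice on a control diet, biological replicates per the series design. No treatment other than the diet is named in the labels, and the sources used here do not give strain, age, sex, diet composition or length of feeding. The comparison asks whether RNA of liver immune cells differed between the diets.

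Kupffer cells are the resident macrophages of the liver. They sit in the sinusoids, take up particles and dying cells from the portal blood, and are marked in mice by Clec4f, Vsig4 and Timd4. Monocytes from the blood enter the liver by way of the chemokine receptor Ccr2 and can become macrophages, and in fatty livers some macrophages around lipid-laden or dying hepatocytes express Trem2, Gpnmb, Cd9 and Spp1. Lymphocytes and neutrophils pass through the sinusoids in smaller numbers. Levels are given as counts per M (mega) counts of a library, written CPM, with library sizes scaled by edgeR's TMM factors. In RNA of whole tissue, fewer cells of a type and less RNA per cell cannot be told apart.

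The libraries held 30.2 to 33.5 M (mega) counts. Ketogenic 4, the ketogenic library with replicate number 4, stood apart from the rest. Its median correlation with its own diet was 0.953, against 0.979 to 0.985 for the other ketogenic libraries and 0.973 to 0.982 for the control libraries. Short genes were high and long genes low in it. Across 13975 tested genes, its deviation from the mean of the 12 libraries had a Spearman rho of -0.50 with exon length. In the other libraries that rho was -0.31 to 0.32. Across the 42 members, log2 ketogenic 4 minus the median of the other ketogenic libraries had a rho of -0.17 with length. The values of all genes and of the members rest on different references and are not compared. Log2 fold changes of single genes without ketogenic 4 are therefore given where they changed sign or moved by over 1.5 times when it was left out. Medians of the lists of further genes were taken with all 12 libraries only, so they do not show what ketogenic 4 adds to them. Hepatocyte RNA dominated every library: Alb, which codes for albumin, averaged 59447 ± 9378 CPM in ketogenic livers and 73246 ± 13415 CPM in control livers (mean ± SD, n = 6 each, used for all means below), while the 42 members together summed to 875 to 1347 CPM in ketogenic livers and 816 to 1307 CPM in control livers.

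Of the 42 genes, 41 had enough counts to be tested, and edgeR's quasi-likelihood test called 0 of them higher and 0 lower on the ketogenic diet under a Benjamini-Hochberg adjusted p of 0.05. The same test called 3.78% of all 13995 genes tested, 2.34% higher and 1.44% lower. An unadjusted p under 0.05 was reached by 5 of the 41 members, or 12.2%, against 16.7% of all genes tested. Those 5 were Cd9 and Gzmb, with negative log2 fold changes, and Cd4, Cd79a and S100a8, with positive ones. DESeq2 also called 0 members, with 6 at an unadjusted p under 0.05, where it called 6.47% of its genes, and limma-voom called 0, with 4 at an unadjusted p under 0.05, where it called 3.54%. The adjusted p of the members in edgeR ran from 0.167 for Cd9 to 0.989 for Cd3e. No member had CPM ranges that did not overlap between the diets, as 3.54% of all genes tested had. The log2 fold change, ketogenic over control, was above 0 for 26 members and below 0 for 15, with a median of 0.09, and across all genes tested the median was -0.001. Without ketogenic 4 it was above 0 for 18 members, with a median of -0.04.

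These values bound the differences unequally. The 95% interval of the fold change lay within 1.5-fold in either direction for 12 members and within 2-fold for 24, so that for the remaining tested members a 2-fold difference lay inside the interval. The 12 members within 1.5-fold were Adgre1, Clec4f, Vsig4, Cd5l, Cd68, Csf1r, Mpeg1, the C1q genes, Ighm and Ptprc. The widest intervals were those of Gpnmb, Marco and Trem2, followed by Gzmb, and 12 of the 42 members had a mean under 1 CPM over the 12 libraries. The edgeR p-values weigh the difference between the diets against the spread among livers of the same diet, and cover these 12 livers only.

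**Figure D1:**
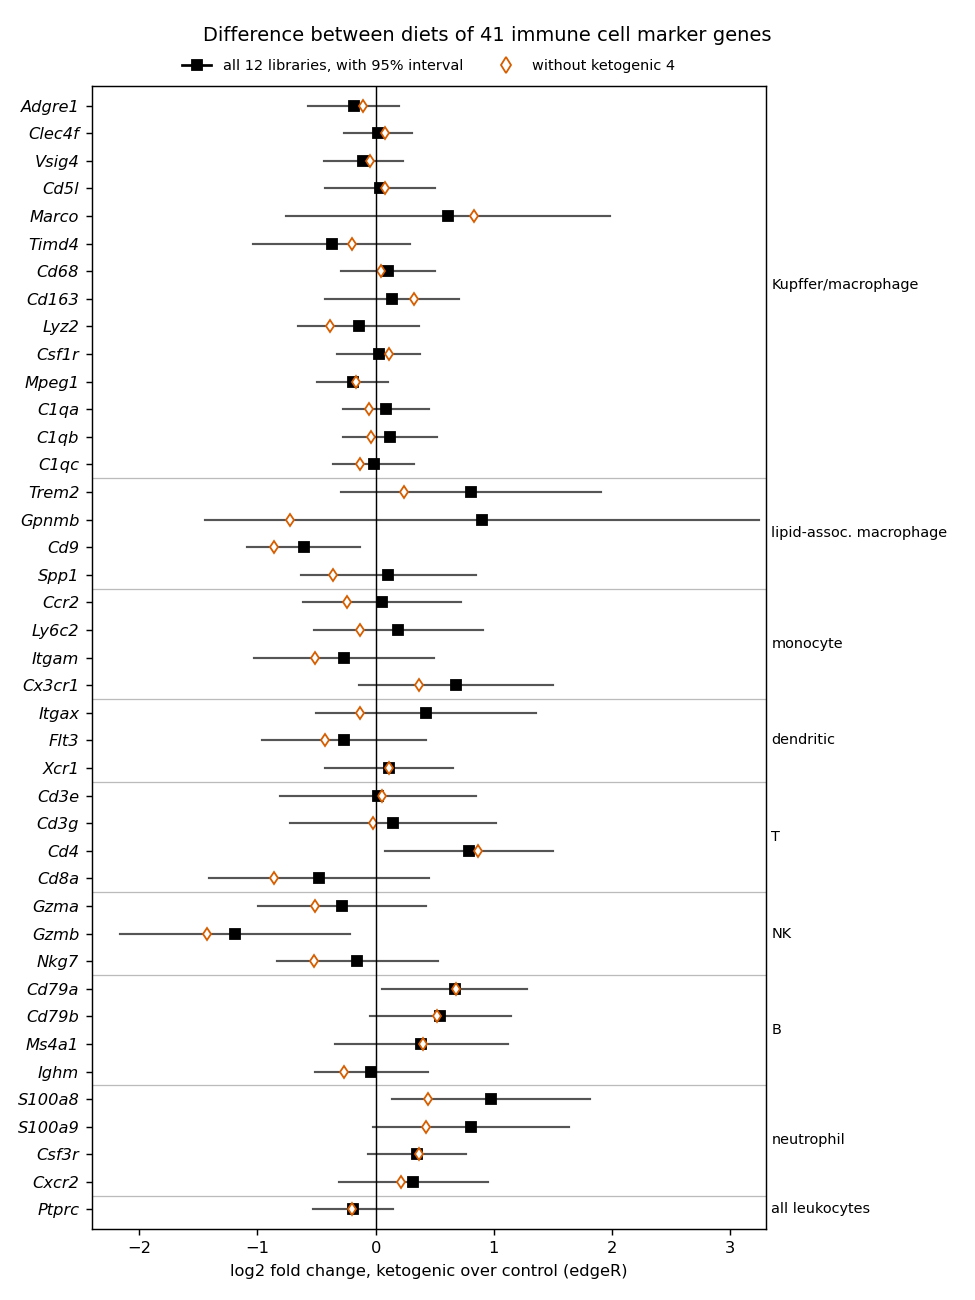
Log2 fold change, ketogenic over control, of the 41 tested members (x axis, log2 scale) grouped by cell type (y axis), with filled points for the estimate from all 12 libraries, horizontal bars for its 95% interval and open diamonds for the estimate without ketogenic 4. The intervals of Cd9 and Gzmb lie below 0 and those of Cd4, Cd79a and S100a8 above 0, and 0 members had an adjusted p under 0.05 with all 12 libraries.

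The plot of fold changes shows short bars for most Kupffer cell genes in its upper part and the longest bars for Gpnmb, Marco and Trem2. It also shows how far the lipid-associated macrophage genes moved when ketogenic 4 was left out.

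Macrophage genes held most of the immune signal. Per kilobase of exon, the level averaged over all 12 libraries was 72.4 CPM per kb for Lyz2, 66.8 for C1qa, 66.6 for Cd5l, 64.4 for C1qb and 62.5 for Clec4f. The order of these 5 was not the same in both diets: in ketogenic livers the mean level per kb was 68.8 for both Lyz2 and C1qa, where Lyz2 was at its highest in ketogenic 4, and in control livers it was 75.9 for Lyz2 and 64.7 for C1qa. The next levels per kb were 31.2 for Spp1, 30.8 for C1qc and 26.0 for Vsig4. At the other end of the order were Cd8a at 0.101 CPM per kb and Cd3e at 0.0992. The summed CPM of the 14 Kupffer cell and macrophage genes was 901 ± 169 CPM in ketogenic livers and 905 ± 164 CPM in control livers. The sums ran from 758 to 1226 CPM in ketogenic livers and from 678 to 1159 CPM in control livers. By comparison, the 4 T cell genes summed to 1.55 to 3.74 CPM in ketogenic livers and 1.38 to 2.91 CPM in control livers.

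**Figure D2:**
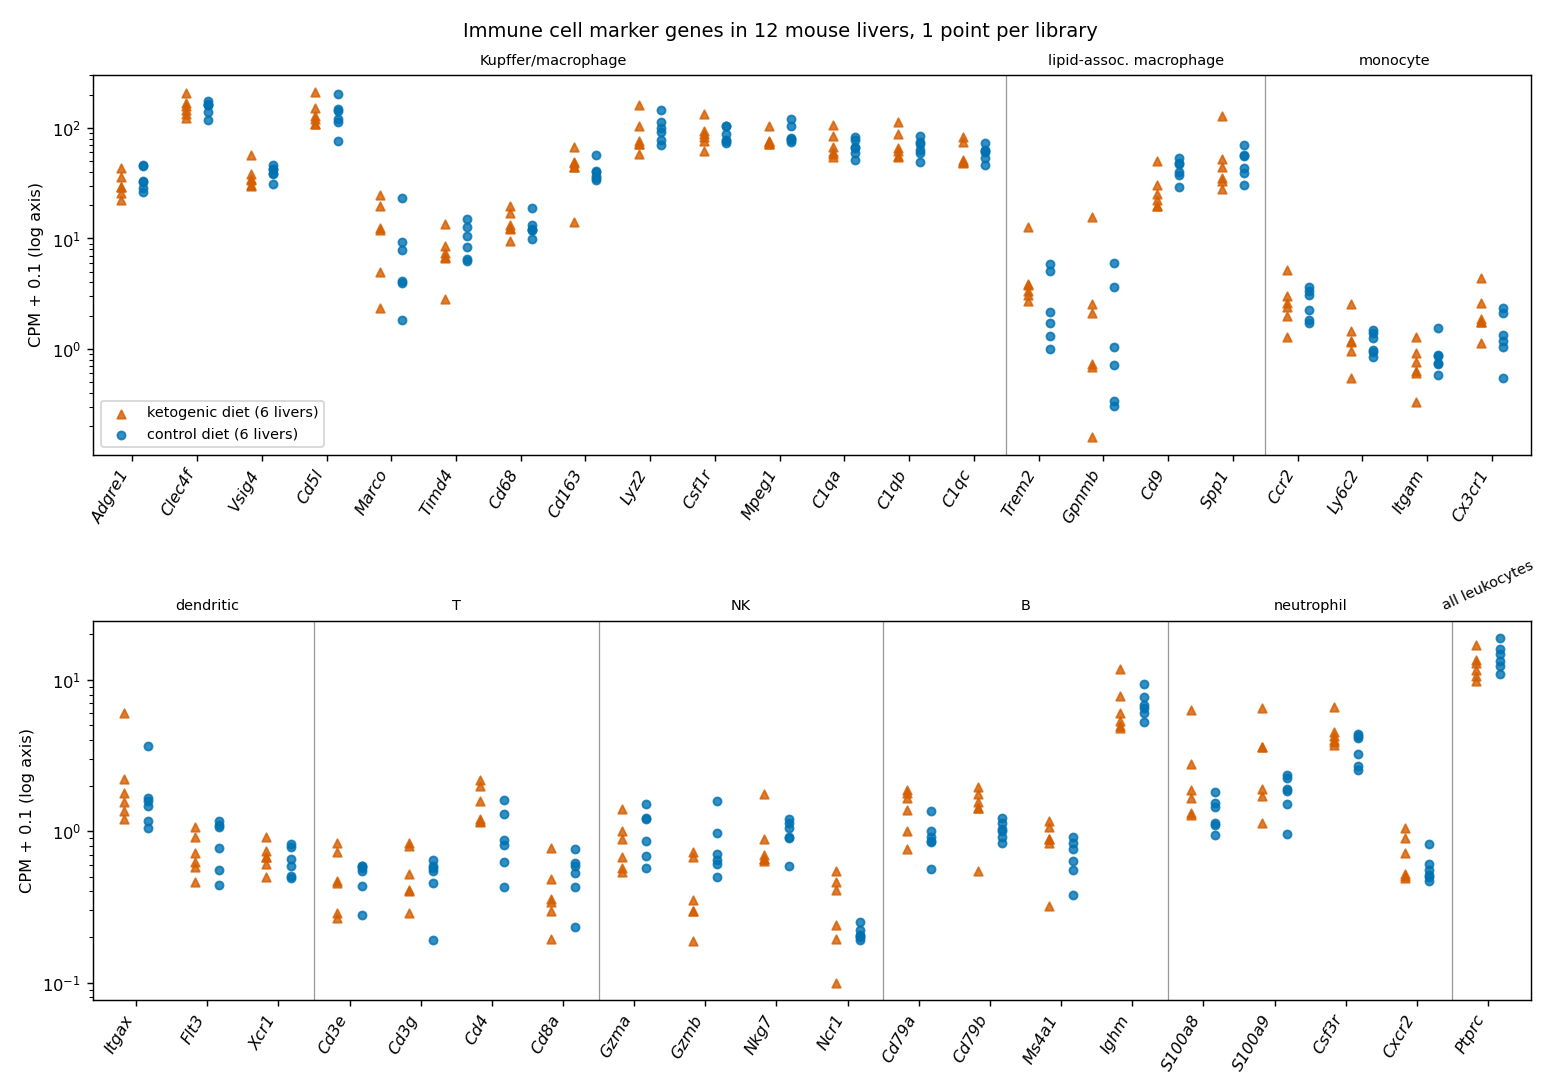
CPM plus 0.1 on a log axis (y axis) of the 42 members (x axis, grouped by cell type), with 1 point per library, ketogenic points left of control points. The Kupffer cell and macrophage genes lie between 1.74 and 209 CPM, most genes of the other cell types lie lower, and the points of the diets overlap for each member.

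The plot of levels shows a tight spread for Clec4f, Mpeg1 and the C1q genes and a wide one for Gpnmb, Marco, Trem2 and Gzmb. Ighm and Ptprc stand above the other lymphocyte and leukocyte genes.

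Of the 14 Kupffer cell and macrophage genes, 0 passed the test, 8 had a log2 fold change above 0 and 6 below it, and the median was 0.02. Without ketogenic 4 the median was -0.04. Clec4f, a C-type lectin found on Kupffer cells, ran from 123 to 206 CPM (median 152) in ketogenic livers and from 119 to 175 CPM (median 160.1) in control livers. Its log2 fold change was 0.02 with a 95% interval of -0.27 to 0.31 (adjusted p = 0.965, edgeR), the narrowest among the members, and 0.08 without ketogenic 4. Vsig4, the complement receptor of the immunoglobulin family that clears opsonised particles, ran from 29.5 to 57.0 CPM (median 34.0) in ketogenic livers and from 31.0 to 46.3 CPM (median 40.7) in control livers. For Vsig4, ketogenic 6 lay above all controls and the other ketogenic libraries lay within or just below them. Cd5l, a secreted scavenger receptor protein of tissue macrophages, ran from 107 to 209 CPM (median 124) in ketogenic livers and from 76.3 to 203 CPM (median 132) in control livers. Adgre1, the gene of the mouse macrophage antigen F4/80, ran from 22.2 to 43.3 CPM (median 29.3) in ketogenic livers and from 26.1 to 46.0 CPM (median 32.7) in control livers. The log2 fold changes were -0.10 for Vsig4, 0.04 for Cd5l and -0.19 for Adgre1 (-0.04, 0.08 and -0.11 without ketogenic 4), with adjusted p-values of 0.823, 0.960 and 0.692 (edgeR).

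Timd4, a receptor for phosphatidylserine on long-lived resident Kupffer cells, ran from 2.72 to 13.5 CPM (median 6.997) in ketogenic livers and from 6.10 to 14.9 CPM (median 9.29) in control livers, a log2 fold change of -0.37 with an interval of -1.04 to 0.30 (adjusted p = 0.633, edgeR) and of -0.20 without ketogenic 4. Its lowest library of all 12 was ketogenic 4, and the other ketogenic libraries spanned 6.61 to 13.5 CPM. Marco, a scavenger receptor that binds bacteria, was the most uneven of these genes, from 2.24 to 24.8 CPM (median 12.2) in ketogenic livers and from 1.74 to 23.3 CPM (median 5.85) in control livers. The highest Marco library was 11.1 times the lowest in ketogenic livers and 13.4 times the lowest in control livers, so that its log2 fold change of 0.61 had an interval of -0.76 to 1.98 (adjusted p = 0.722, edgeR). Cd163, the haemoglobin-haptoglobin scavenger receptor, was 14.0 to 67.3 CPM (median 46.5) in ketogenic livers and 33.7 to 56.9 CPM (median 38.4) in control livers. Ketogenic 4 was the lowest of all 12 libraries for Cd163, and 4 of the other 5 ketogenic libraries lay between 44.3 and 49.5 CPM. The log2 fold change of Cd163 was 0.14 with all libraries (adjusted p = 0.867) and 0.33 without ketogenic 4 (adjusted p = 0.219, edgeR).

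Genes of macrophages in general gave the same count of calls. Csf1r, the receptor for the growth factors CSF1 and IL-34 on which macrophages depend, ran from 62.1 to 133 CPM (median 85.2) in ketogenic livers and from 73.6 to 105 CPM (median 83.3) in control livers, with a log2 fold change of 0.03 and an interval of -0.33 to 0.38 (0.11 without ketogenic 4). Mpeg1, a pore-forming protein that acts on engulfed bacteria, ran from 70.9 to 103 CPM (median 74.5) in ketogenic livers and from 73.9 to 121 CPM (median 80.6) in control livers, with a log2 fold change of -0.19. Its adjusted p of 0.562 was the lowest of the 14 genes (edgeR). Of the ketogenic libraries, 5 lay between 70.9 and 75.4 CPM of Mpeg1, and ketogenic 6 at 103 CPM. Lyz2, the lysozyme of macrophages and neutrophils, ran from 58.2 to 161 CPM (median 74.4) in ketogenic livers and from 70.7 to 146 CPM (median 95.6) in control livers. Ketogenic 4 held the highest Lyz2 value of all 12 libraries, and without it the ketogenic range was 58.2 to 103 CPM and the log2 fold change -0.39 (adjusted p = 0.263) in place of -0.14 (adjusted p = 0.847, edgeR). Cd68, a lysosomal protein of phagocytes, ran from 9.30 to 19.4 CPM (median 12.7) in ketogenic livers and from 9.78 to 18.7 CPM (median 11.9) in control livers (log2 fold change 0.11, or 0.04 without ketogenic 4).

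C1qa, C1qb and C1qc code for the chains of C1q, the first component of the classical complement pathway, which macrophages secrete. C1qa ran from 54.1 to 106 CPM (median 64.0) in ketogenic livers and from 51.4 to 82.3 CPM (median 66.2) in control livers. C1qb ran from 54.7 to 113 CPM (median 63.7) in ketogenic livers and from 49.6 to 84.4 CPM (median 67.4) in control livers, and C1qc from 48.0 to 82.5 CPM (median 50.5) in ketogenic livers and from 46.1 to 73.5 CPM (median 61.4) in control livers. The log2 fold changes were 0.09, 0.12 and -0.02 in that order, each with an adjusted p of at least 0.822 (edgeR), and -0.06, -0.04 and -0.14 without ketogenic 4. In all 3 genes ketogenic 4 was the highest ketogenic library. The chains moved together from liver to liver. Over the 12 libraries, C1qa and C1qb had a Pearson r of 0.987 and a Spearman rho of 0.993 on log2 CPM, each with a permutation p of 1e-05, the smallest that 100000 permutations can give, and an adjusted p of 0.00012 over the 12 gene pairs computed. Within the ketogenic livers r was 0.996 and within the control livers 0.967. Without the 2 libraries farthest from the median, r was 0.969. C1qa and C1qc had an r of 0.931 and a rho of 0.874 (permutation p = 2e-05 and 0.00041, adjusted p = 0.00012 and 0.00246). For that pair, r was 0.944 within ketogenic livers and 0.955 within control livers, and 0.886 without the 2 farthest libraries.

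The C1q genes lie side by side on chromosome 4, and the windows before the starts of C1qb and C1qc are printed because these genes moved together. Promoter sequences come from RefSeq (GRCm38.p6) and hold the 250 bases before the start, 5′ to 3′ on the strand of the gene, which is the minus strand for both genes, at chr4:136886201-136886450 for C1qb and chr4:136892915-136893164 for C1qc. Capitals mark matches to 4 motifs searched on both strands: GAGGAA, a core bound by the macrophage and B cell factor PU.1, TTGCNNAA for C/EBP factors, the E-box CACGTG and TGANTCA for AP-1. A match is a description of letters and shows no binding.
C1qb: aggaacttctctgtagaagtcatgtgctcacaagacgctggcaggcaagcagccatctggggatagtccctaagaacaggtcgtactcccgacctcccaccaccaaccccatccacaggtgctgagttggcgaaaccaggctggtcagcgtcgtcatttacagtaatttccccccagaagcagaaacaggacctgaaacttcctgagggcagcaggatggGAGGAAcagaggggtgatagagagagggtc
C1qc: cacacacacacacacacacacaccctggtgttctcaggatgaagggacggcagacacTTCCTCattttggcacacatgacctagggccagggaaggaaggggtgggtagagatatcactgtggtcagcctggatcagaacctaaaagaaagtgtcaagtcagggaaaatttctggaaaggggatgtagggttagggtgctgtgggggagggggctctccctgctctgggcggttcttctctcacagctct
The PU.1 core was found in both windows, with its first base 30 bases before the start of C1qb and 193 bases before that of C1qc, on the opposite strand in C1qc, where it reads TTCCTC. Promoters were found for 35 of the 42 members by symbol, and not for Adgre1, C1qa, Cd4, Cd79b, Csf1r, Ighm or Ms4a1. The core stood in 18 of the 39 windows of these 35 genes, against 23.3% of 32851 windows of all genes. The C/EBP motif stood in 4 of the 39 windows (9.56% of all windows), the AP-1 motif in 4 (6.75%) and the E-box in 1 (6.02%).

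The Kupffer cell markers had lower correlations. Clec4f and Vsig4 had an r of 0.756 and a rho of 0.699 over the 12 libraries (permutation p = 0.00436 and 0.014, adjusted p = 0.00872 and 0.028). Within ketogenic livers r was 0.770 and within control livers 0.852. Without the 2 farthest libraries r was 0.511 (permutation p = 0.129), so that the relation did not pass the threshold without them. Leaving them out also narrows the range of Clec4f and lowers the number of libraries. Clec4f and Timd4 had an r of 0.704 and a rho of 0.678 (permutation p = 0.00996 and 0.0179, adjusted p = 0.0171 and 0.0308), with 0.785 within ketogenic livers, 0.724 within control livers and 0.712 without the 2 farthest libraries. For Clec4f and Adgre1, r was 0.610 and rho 0.587 (permutation p = 0.0342 and 0.0487), and the adjusted p of 0.0513 and 0.073 missed the threshold.

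The 4 genes linked to lipid-associated macrophages depended most on ketogenic 4. None of the 4 passed the test with all 12 libraries, 3 had a log2 fold change above 0, and the median was 0.46 with ketogenic 4 and -0.54 without it. Their summed CPM ran from 50.2 to 206 CPM in ketogenic livers and from 60.5 to 127 CPM in control livers. The highest of the ketogenic sums was that of ketogenic 4, and the other ketogenic libraries spanned 50.2 to 86.8 CPM.

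Cd9, a membrane protein of the tetraspanin family that these macrophages share with many other cells of the liver, had the lowest p of the 41 tested members. It lies, as the deposited table gives it, at chromosome 6, 125437229 to 125471754, minus strand (ENSMUSG00000030342). Its CPM was 19.7 in ketogenic 1, 19.5 in ketogenic 2, 22.2 in ketogenic 3, 49.98 in ketogenic 4, 30.6 in ketogenic 5 and 25.3 in ketogenic 6, a median of 23.8. In control livers it was 53.4, 37.8, 39.8, 29.0, 47.1 and 47.9 CPM, with a median of 43.5. Of the ketogenic libraries, 4 lay below all 6 controls, ketogenic 5 lay just above the lowest control, and ketogenic 4 lay above 5 of the 6. Means were 27.9 ± 11.6 CPM in ketogenic livers and 42.5 ± 8.74 CPM in control livers. The log2 fold change was -0.61 ± 0.22 (SE) with an interval of -1.09 to -0.13 (adjusted p = 0.167, edgeR), and 1 of the 6 ketogenic libraries lay above the control mean. Cd9 fell when ketogenic 4 was left out. Means were then 23.5 ± 4.64 CPM in ketogenic livers (n = 5) and 42.5 ± 8.74 CPM in control livers as before. Without ketogenic 4, the log2 fold change of Cd9 was -0.86 ± 0.16, with an adjusted p of 0.00786 (edgeR), and Cd9 was the 1 member of 41 called, where 5.39% of all genes were called and 2.24% were called lower. The exons of Cd9 share 218 bases with those of an antisense gene, Gm26728, and the sources used here do not say whether the counting used strand.

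Trem2, a lipid-binding receptor that marks lipid-associated macrophages, ran from 2.60 to 12.6 CPM (median 3.46) in ketogenic livers and from 0.890 to 5.77 CPM (median 1.83) in control livers. Ketogenic 4 held the highest value, the other ketogenic libraries spanned 2.60 to 3.74 CPM, and control 5 and control 6 lay above all of these with 5.77 and 4.93 CPM. The log2 fold change was 0.80 ± 0.51 with an interval of -0.30 to 1.91 (adjusted p = 0.492) and 0.24 without ketogenic 4 (adjusted p = 0.815, edgeR). Gpnmb, a transmembrane glycoprotein of lipid-loaded macrophages, ran from 0.0585 to 15.6 CPM (median 1.32) in ketogenic livers and from 0.205 to 5.92 CPM (median 0.782) in control livers. Again ketogenic 4 was the highest, followed by control 6 and control 5 with 5.92 and 3.52 CPM. Its log2 fold change of 0.90 had an interval of -1.44 to 3.24 (adjusted p = 0.769), and the value turned to -0.72 without ketogenic 4 (adjusted p = 0.744, edgeR). Spp1, or osteopontin, is made by these macrophages and also by bile duct cells. It ran from 28.0 to 128 CPM (median 39.6) in ketogenic livers and from 30.4 to 70.4 CPM (median 49.7) in control livers, with a log2 fold change of 0.11 with ketogenic 4, which held 128 CPM, and -0.36 without it (adjusted p = 0.928 and 0.393, edgeR).

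Trem2 and Gpnmb varied together across livers of both diets, and their promoter windows are printed for that reason (RefSeq, GRCm38.p6, plus strand, 5′ to 3′, capitals marking motifs as above), at chr17:48346151-48346400 for Trem2 and chr6:49036268-49036517 for Gpnmb.
Trem2: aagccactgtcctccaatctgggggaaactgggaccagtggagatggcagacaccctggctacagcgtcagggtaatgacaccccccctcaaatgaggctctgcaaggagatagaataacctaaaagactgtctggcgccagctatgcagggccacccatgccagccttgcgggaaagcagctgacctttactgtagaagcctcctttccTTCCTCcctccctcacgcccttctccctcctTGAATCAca
Gpnmb: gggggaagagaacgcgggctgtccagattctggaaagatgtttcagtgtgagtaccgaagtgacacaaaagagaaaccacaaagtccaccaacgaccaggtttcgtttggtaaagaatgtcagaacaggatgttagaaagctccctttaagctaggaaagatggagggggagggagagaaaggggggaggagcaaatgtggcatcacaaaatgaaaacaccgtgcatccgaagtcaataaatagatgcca
The Trem2 window held a PU.1 core 40 bases and an AP-1 motif 9 bases before the start, and the Gpnmb window held none of the 4 motifs. Their r was 0.846 and rho 0.860 over the 12 libraries (permutation p = 0.00048 and 0.00082, adjusted p = 0.00192 and 0.00328). Within ketogenic livers r was 0.892 and within control livers 0.974, and without the 2 farthest libraries it was 0.727 (permutation p = 0.0163).

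**Figure D3:**
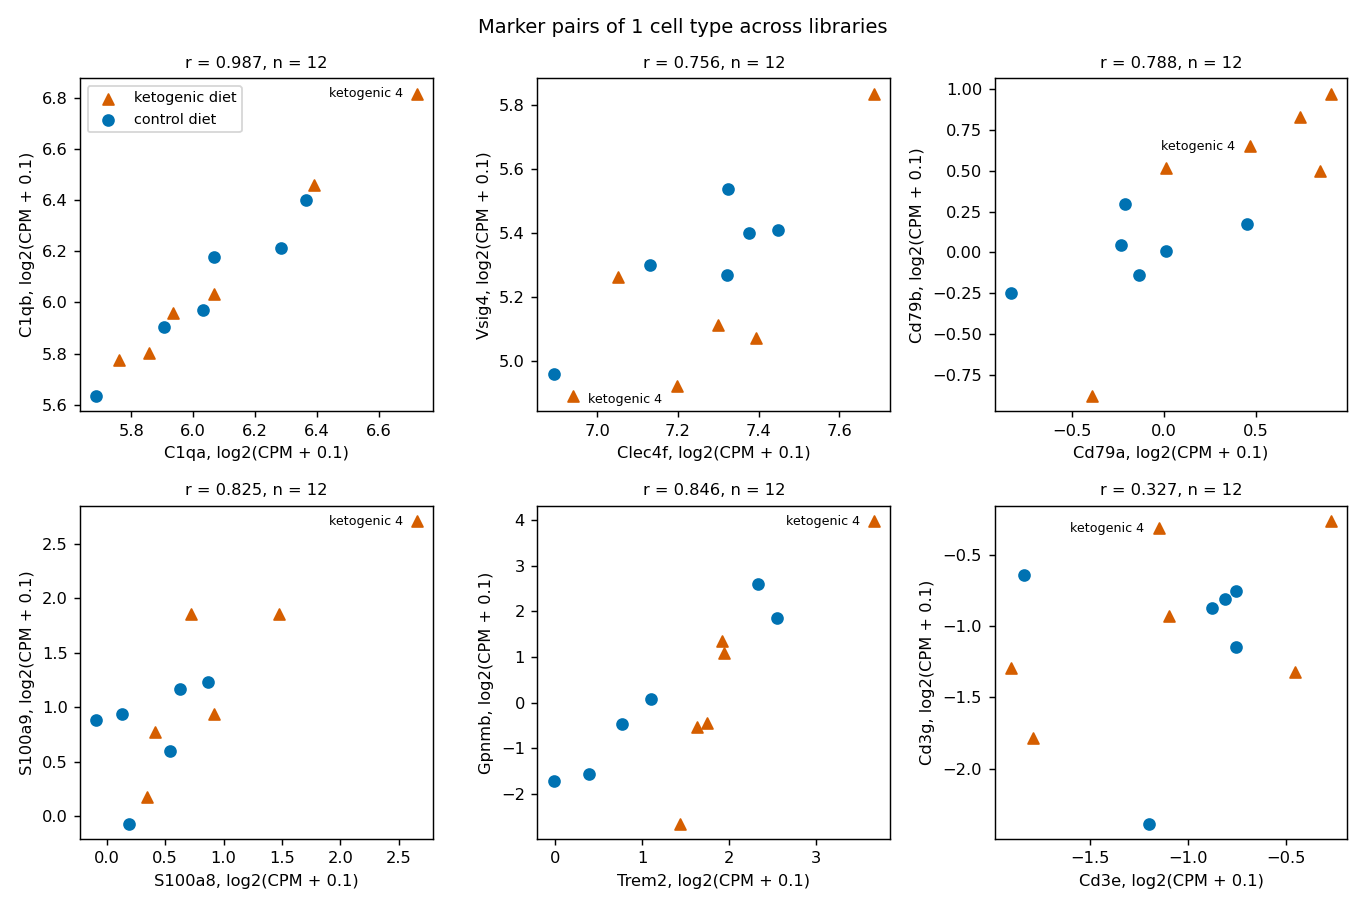
Log2(CPM + 0.1) of 2 genes in each of the 12 libraries for 6 pairs (x axis the first gene, y axis the second), with ketogenic and control libraries in separate colours. C1qa with C1qb (r = 0.987) and Trem2 with Gpnmb (r = 0.846) follow a line in both diets, whereas Cd3e with Cd3g (r = 0.327) scatters.

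The plot of gene pairs shows ketogenic 4 at the upper end of the S100a8, Trem2 and C1qa panels. In the Trem2 panel control 5 and control 6 lie next to it, above the other libraries of both diets.

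Of the 4 monocyte genes, 0 passed the test and 3 had a log2 fold change above 0. Their median was 0.12 with ketogenic 4 and -0.19 without it, and their summed CPM ran from 4.74 to 12.98 CPM in ketogenic livers, 4.74 to 6.996 CPM without ketogenic 4, and from 3.70 to 7.40 CPM in control livers. Ccr2, the receptor by which monocytes leave the marrow and enter inflamed tissue, ran from 1.17 to 5.12 CPM (median 2.42) in ketogenic livers and from 1.61 to 3.56 CPM (median 2.56) in control livers (log2 fold change 0.06, adjusted p = 0.960, edgeR, and -0.24 without ketogenic 4). Ly6c2, a surface antigen of classical monocytes whose near copy Ly6c1 can share its reads, ran from 0.447 to 2.43 CPM (median 1.06) in ketogenic livers and from 0.751 to 1.37 CPM (median 1.02) in control livers. The log2 fold change of Ly6c2 was 0.19, and -0.13 without ketogenic 4. For both genes ketogenic 4 was the highest of all 12 libraries, and the correlation of Ccr2 with Ly6c2 did not pass the threshold (r = 0.324, rho = 0.182, permutation p = 0.303 and 0.570, adjusted p = 0.330 and 0.570). Itgam, the CD11b chain of a myeloid integrin, ran from 0.234 to 1.18 CPM (median 0.597) in ketogenic livers and from 0.479 to 1.44 CPM (median 0.706) in control livers. Its log2 fold change was -0.27, and -0.52 without ketogenic 4. It shares 3450 exon bases with Gm49368 on the same strand. Cx3cr1, the fractalkine receptor of patrolling monocytes and some macrophages, had the lowest adjusted p of the 4. It ran from 1.02 to 4.25 CPM (median 1.72) in ketogenic livers and from 0.445 to 2.25 CPM (median 1.16) in control livers, a log2 fold change of 0.68 with an interval of -0.142 to 1.503 (adjusted p = 0.419, edgeR), and 0.37 without ketogenic 4.

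Of the 3 dendritic cell genes, 0 passed the test. Itgax, the CD11c integrin chain of dendritic cells and some macrophages, ran from 1.11 to 5.92 CPM (median 1.57) in ketogenic livers and from 0.956 to 3.58 CPM (median 1.42) in control livers. The highest library of each diet was also that of highest Trem2, ketogenic 4 and control 5, and the log2 fold change of Itgax was 0.43 with ketogenic 4 and -0.13 without it (adjusted p = 0.712 and 0.869, edgeR). Flt3, the receptor for the growth factor of dendritic cell precursors, ran from 0.363 to 0.959 CPM (median 0.575) in ketogenic livers and from 0.342 to 1.07 CPM (median 0.827) in control livers. Xcr1, the chemokine receptor of cross-presenting dendritic cells, ran from 0.397 to 0.819 CPM (median 0.574) in ketogenic livers and from 0.387 to 0.721 CPM (median 0.522) in control livers. The log2 fold changes were -0.27 for Flt3 and 0.11 for Xcr1 (adjusted p = 0.772 and 0.892, edgeR), and -0.42 and 0.12 without ketogenic 4.

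Of the 4 T cell genes 0 passed the test, and Cd3e, Cd3g and Cd8a had at most 25 counts in a library. Cd3e and Cd3g code for chains of the CD3 complex that signals for the T cell receptor. Cd3e ran from 0.168 to 0.731 CPM (median 0.360) in ketogenic livers and from 0.180 to 0.494 CPM (median 0.458) in control livers, and Cd3g from 0.1898 to 0.731 CPM (median 0.366) in ketogenic livers and from 0.0917 to 0.541 CPM (median 0.458) in control livers. Their log2 fold changes were 0.02 and 0.15, and 0.06 and -0.02 without ketogenic 4. The correlation of these 2 chains did not pass the threshold (r = 0.327, rho = 0.301, permutation p = 0.302 and 0.341, adjusted p = 0.330 and 0.372). Cd4, the coreceptor of helper T cells, ran from 1.06 to 2.07 CPM (median 1.297) in ketogenic livers and from 0.331 to 1.51 CPM (median 0.741) in control livers (chromosome 6, 124841655 to 124865184, minus strand, ENSMUSG00000023274). Every ketogenic library lay above the control mean of 0.840 CPM, while control 2 and control 4 overlapped the ketogenic range. This gave a log2 fold change of 0.79 ± 0.33 with an interval of 0.078 to 1.498 (adjusted p = 0.236, edgeR). Cd8a, the coreceptor of cytotoxic T cells, ran from 0.0949 to 0.672 CPM (median 0.248) in ketogenic livers and from 0.134 to 0.669 CPM (median 0.461) in control livers, a log2 fold change of -0.48 with an interval of -1.41 to 0.45 (adjusted p = 0.667, edgeR), and of -0.86 without ketogenic 4.

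Of the 4 genes of NK and cytotoxic cells, 3 were tested and 0 passed, with log2 fold changes below 0 for all 3 and a median of -0.28, or -0.52 without ketogenic 4. Gzmb, the granzyme B protease that cytotoxic cells release to kill their targets, had the largest fitted fold change of the 41 tested members on the log2 scale (chromosome 14, 56496295 to 56499717, minus strand, ENSMUSG00000015437). Its CPM was 0.195, 0.0878, 0.198, 0.576, 0.253 and 0.632 in ketogenic 1 to 6 and 0.401, 0.611, 0.504, 0.548, 1.47 and 0.881 in control 1 to 6. The ketogenic libraries 1, 2, 3 and 5 lay below all controls, and ketogenic 4 and ketogenic 6 overlapped them. On the log2 scale the fold change was -1.19 ± 0.45 with an interval of -2.16 to -0.22 (adjusted p = 0.185, edgeR), and 0 of 6 ketogenic libraries lay above the control mean. Without ketogenic 4 it was -1.43 (adjusted p = 0.0967, edgeR). These levels stand for 3 to 49 counts in a library. Gzma, the granzyme A protease of the same granules, ran from 0.439 to 1.31 CPM (median 0.681) in ketogenic livers and from 0.470 to 1.41 CPM (median 0.938) in control livers (log2 fold change -0.28, adjusted p = 0.762, edgeR, and -0.51 without ketogenic 4). The granzymes had an r of 0.591 and a rho of 0.566 across the libraries (permutation p = 0.0447 and 0.0595), and their adjusted p of 0.0597 and 0.0793 missed the threshold. Nkg7, a granule protein of cytotoxic cells, ran from 0.538 to 1.66 CPM (median 0.577) in ketogenic livers and from 0.489 to 1.11 CPM (median 0.886) in control livers (log2 fold change -0.16, and -0.52 without ketogenic 4). Ncr1, the NK cell receptor NKp46, had too few counts for the fit. It was 0.140, 0, 0.312, 0.448, 0.0949 and 0.361 CPM in ketogenic 1 to 6 and 0.0925, 0.122, 0.101, 0.103, 0.1503 and 0.106 CPM in control 1 to 6, a mean difference of 0.113 CPM (two-sided exact permutation test of the difference of means, p = 0.147). With all libraries, the list of further T and NK cell genes lay on the other side of 0. Its 16 tested genes then had a median log2 fold change of 0.31, with 2 at an unadjusted p under 0.05, both higher, and 0 called by edgeR. Without ketogenic 4, genes of this list lay on both sides of 0. Trbc2 was then 0.01 (0.33 with all libraries), Cd2 0.02 (0.30), Trac -0.27 (-0.03) and Lck 0.46 (0.57). Prf1, or perforin, which cytotoxic cells release with the granzymes, averaged 0.614 ± 0.168 CPM in ketogenic livers and 0.303 ± 0.172 CPM in control livers, a log2 fold change of 1.01 (adjusted p = 0.171, edgeR) and 1.00 without ketogenic 4. Klrd1, the CD94 receptor chain of NK cells, had a log2 fold change of 0.35 and the chemokine gene Ccl5 one of 0.55, with 0.04 and -0.03 without ketogenic 4.

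**Figure D4:**
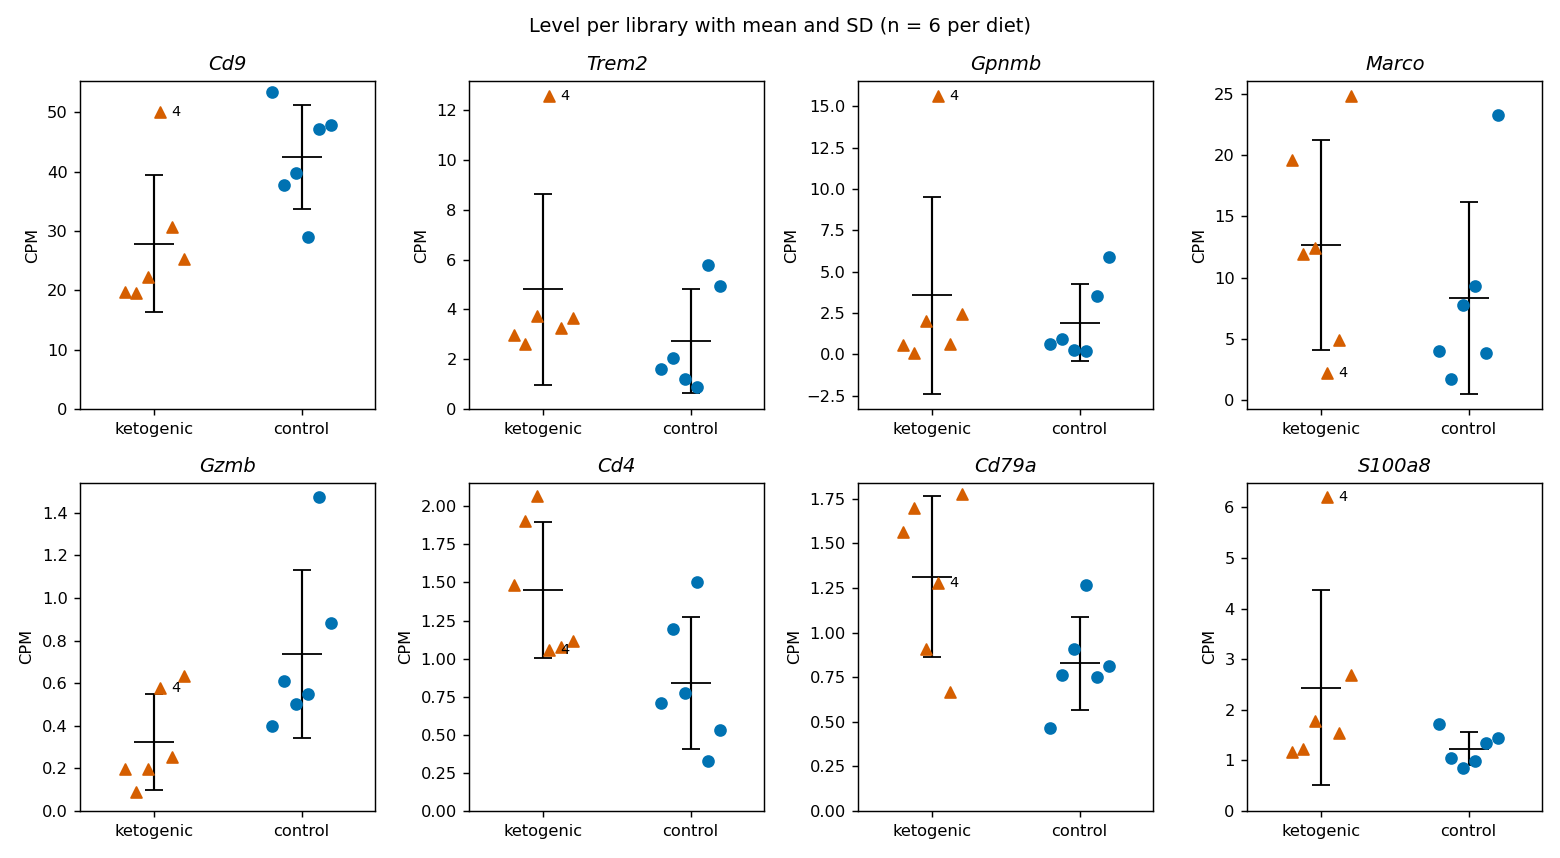
CPM (y axis) of 8 members in each of the 12 libraries, ketogenic libraries left and control libraries right, with points for libraries, bars for the mean and error bars for 1 SD (n = 6 each). Ketogenic 4 is the highest ketogenic library for Cd9, Trem2, Gpnmb and S100a8 and the lowest for Marco.

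In the panels of Gzmb, Cd4 and Cd79a the point of ketogenic 4 lies within the range of the other ketogenic libraries or at its edge. In the S100a8 and Gpnmb panels its point lies far above the others.

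Of the 4 B cell genes, 0 passed the test, 3 had a log2 fold change above 0 and the median was 0.47, or 0.46 without ketogenic 4. Cd79a and Cd79b code for the signalling chains of the B cell receptor. Cd79a ran from 0.664 to 1.78 CPM (median 1.42) in ketogenic livers and from 0.463 to 1.27 CPM (median 0.787) in control livers (chromosome 7, 24596806 to 24601622, plus strand, ENSMUSG00000003379). Ketogenic 1, 2, 4 and 6 lay above all controls, and ketogenic 3 and ketogenic 5 lay among them. This gave a log2 fold change of 0.67 ± 0.29 with an interval of 0.06 to 1.28 (adjusted p = 0.244, edgeR). Cd79b ran from 0.443 to 1.87 CPM (median 1.40) in ketogenic livers and from 0.740 to 1.13 CPM (median 0.919) in control livers, with ketogenic 5 the lowest of all 12 libraries and the other 5 ketogenic libraries above all controls (log2 fold change 0.55, adjusted p = 0.360, edgeR). The chains varied together, with an r of 0.788 and a rho of 0.818 (permutation p = 0.00223 and 0.00214, adjusted p = 0.00535 and 0.00642). For them r was 0.840 within ketogenic livers, 0.611 within control livers and 0.730 without the 2 farthest libraries. Ms4a1, the CD20 antigen of mature B cells, ran from 0.221 to 1.06 CPM (median 0.788) in ketogenic livers and from 0.278 to 0.821 CPM (median 0.599) in control livers. Ighm, the heavy chain of IgM, was the most abundant B cell gene and averaged 6.68 ± 2.66 CPM in ketogenic livers and 6.85 ± 1.43 CPM in control livers. For Ighm the log2 fold change was -0.04 with an interval of -0.51 to 0.44 (adjusted p = 0.965, edgeR) and -0.27 without ketogenic 4, while that of Ms4a1 was 0.39 (adjusted p = 0.656, edgeR). Further B and plasma cell genes varied in direction. With all libraries, the 15 tested had a median log2 fold change of -0.04. Of these, edgeR called 0, and 2 had an unadjusted p under 0.05, both lower. Pax5 and Ighd had log2 fold changes of 1.06 and 0.75, and Cd22 and Fcmr of -0.25 and -0.20 (adjusted p = 0.343, 0.331, 0.655 and 0.898, edgeR).

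All 4 neutrophil genes had a log2 fold change above 0, with a median of 0.58, or 0.40 without ketogenic 4, and 0 passed the test. Their summed CPM ran from 6.39 to 17.6 CPM in ketogenic livers, 6.39 to 13.1 CPM without ketogenic 4, and from 4.70 to 8.10 CPM in control livers. S100a8 and S100a9 code for the partner proteins of calprotectin, which fills the cytosol of neutrophils. S100a8 was 1.17, 1.23, 1.78, 6.20, 1.55 and 2.68 CPM in ketogenic 1 to 6 and 1.73, 1.04, 0.840, 0.993, 1.35 and 1.44 CPM in control 1 to 6 (chromosome 3, 90576285 to 90577342, plus strand, ENSMUSG00000056054). Ketogenic 4 was far above the rest, ketogenic 6 second, and the other libraries of both diets overlapped. S100a8 had a log2 fold change of 0.98 ± 0.39 with an interval of 0.14 to 1.81 (adjusted p = 0.211, edgeR). It was 0.45 without ketogenic 4 (adjusted p = 0.374, edgeR). S100a9 ran from 1.03 to 6.43 CPM (median 2.66) in ketogenic livers and from 0.855 to 2.25 CPM (median 1.78) in control livers (log2 fold change 0.81, adjusted p = 0.319, edgeR), and 0.43 without ketogenic 4. Csf3r, the receptor for the granulocyte growth factor G-CSF, ran from 3.60 to 6.53 CPM (median 4.03) in ketogenic livers and from 2.44 to 4.31 CPM (median 3.60) in control livers. All 6 ketogenic libraries lay above the control mean of Csf3r, and its log2 fold change was 0.35 with an interval of -0.07 to 0.76 (adjusted p = 0.409, edgeR). Cxcr2, the chemokine receptor that draws neutrophils into tissue, ran from 0.391 to 0.949 CPM (median 0.521) in ketogenic livers and from 0.367 to 0.721 CPM (median 0.434) in control livers (log2 fold change 0.32, adjusted p = 0.677, edgeR). Further neutrophil genes varied in direction. Of 17, among them the defining antigen Ly6g at 0 to 0.0959 CPM in ketogenic livers and 0 to 0.0308 CPM in control livers, 6 had enough counts to be tested. With all libraries their median log2 fold change was -0.11, with 0 called by edgeR and 1 at an unadjusted p under 0.05, lower, Il1b, the cytokine IL-1 beta of neutrophils and macrophages. Il1b averaged 3.46 ± 1.97 CPM in ketogenic livers and 7.07 ± 3.80 CPM in control livers, a log2 fold change of -1.03 (adjusted p = 0.256, edgeR). Lcn2, or lipocalin-2, which hepatocytes also make, had a log2 fold change of -1.23, the protease gene Mmp9 -0.23 and Retnlg, a secreted protein of mouse neutrophils, 0.69 (adjusted p = 0.624, 0.763 and 0.468, edgeR). That of Retnlg was 0.36 without ketogenic 4.

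The promoter windows of the calprotectin genes are printed because the proteins act as a pair (RefSeq, GRCm38.p6, 5′ to 3′, capitals marking motifs as above). They lie at chr3:90668821-90669070 on the plus strand for S100a8 and chr3:90695722-90695971 on the minus strand for S100a9.
S100a8: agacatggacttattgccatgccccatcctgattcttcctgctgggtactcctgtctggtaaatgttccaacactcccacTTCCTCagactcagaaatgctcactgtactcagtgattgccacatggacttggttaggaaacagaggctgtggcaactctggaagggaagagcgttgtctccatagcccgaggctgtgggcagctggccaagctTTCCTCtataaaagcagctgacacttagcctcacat
S100a9: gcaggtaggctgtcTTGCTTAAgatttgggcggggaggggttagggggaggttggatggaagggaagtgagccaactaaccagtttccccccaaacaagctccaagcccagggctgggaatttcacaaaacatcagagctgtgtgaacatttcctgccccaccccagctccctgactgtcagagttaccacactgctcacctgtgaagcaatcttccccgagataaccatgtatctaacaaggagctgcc
The S100a8 window held 2 PU.1 cores, 170 and 36 bases before the start, and the S100a9 window held 1 C/EBP motif 236 bases before it. S100a8 and S100a9 had an r of 0.825 and a rho of 0.720 over the 12 libraries (permutation p = 0.00142 and 0.011, adjusted p = 0.00426 and 0.0265). Within ketogenic livers r was 0.869 and within control livers 0.423. Without the 2 farthest libraries, ketogenic 4 among them, r was 0.482 (permutation p = 0.156), so that the relation did not pass the threshold without them. Leaving them out also narrows the range of S100a8 and lowers the number of libraries. The receptors Csf3r and Cxcr2 had an r of 0.264 and a rho of 0.406 (permutation p = 0.406 and 0.193, adjusted p = 0.406 and 0.232).

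Ptprc, which marks all leukocytes and so sums over the cell types above, ran from 9.77 to 16.9 CPM (median 12.1) in ketogenic livers and from 10.8 to 18.9 CPM (median 13.9) in control livers. Its log2 fold change was -0.19 with an interval of -0.53 to 0.14 (adjusted p = 0.621, edgeR).

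Single libraries stood out from their own diet. In ketogenic 4, 19 of the 42 members were at least 2-fold above the median of the other 5 ketogenic libraries, where 7.32% of all genes tested were. The 19 held genes of every class but Ptprc: Lyz2, all 4 lipid-associated macrophage genes (Trem2, Gpnmb, Cd9 and Spp1), all 4 monocyte genes (Ccr2, Ly6c2, Itgam and Cx3cr1), Itgax, Cd3g and Cd8a, all 4 genes of NK and cytotoxic cells (Gzma, Gzmb, Nkg7 and Ncr1), Ighm, and S100a8 and S100a9. The neutrophil genes Csf3r and Cxcr2 were 1.06 and 1.91 times that median. Marco, Timd4 and Cd163 were at least 2-fold below it, 3 of 42 members beside 8.92% of all genes tested, a share near the background. The other Kupffer cell genes lay closer, Clec4f at 0.779, Vsig4 at 0.856 and Cd5l at 0.934 times the median, and C1qa at 1.73 times. Ketogenic 4 was the highest of the 6 ketogenic libraries for 21 members and the lowest for 8. In the other libraries 0 to 5 members were at least 2-fold above the median of the rest of their diet and 0 to 9 at least 2-fold below it. Those above in control 5 were Trem2, Gpnmb, Cx3cr1, Itgax and Gzmb. The part of the length trend of ketogenic 4 in these values was not tested.

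**Figure D5:**
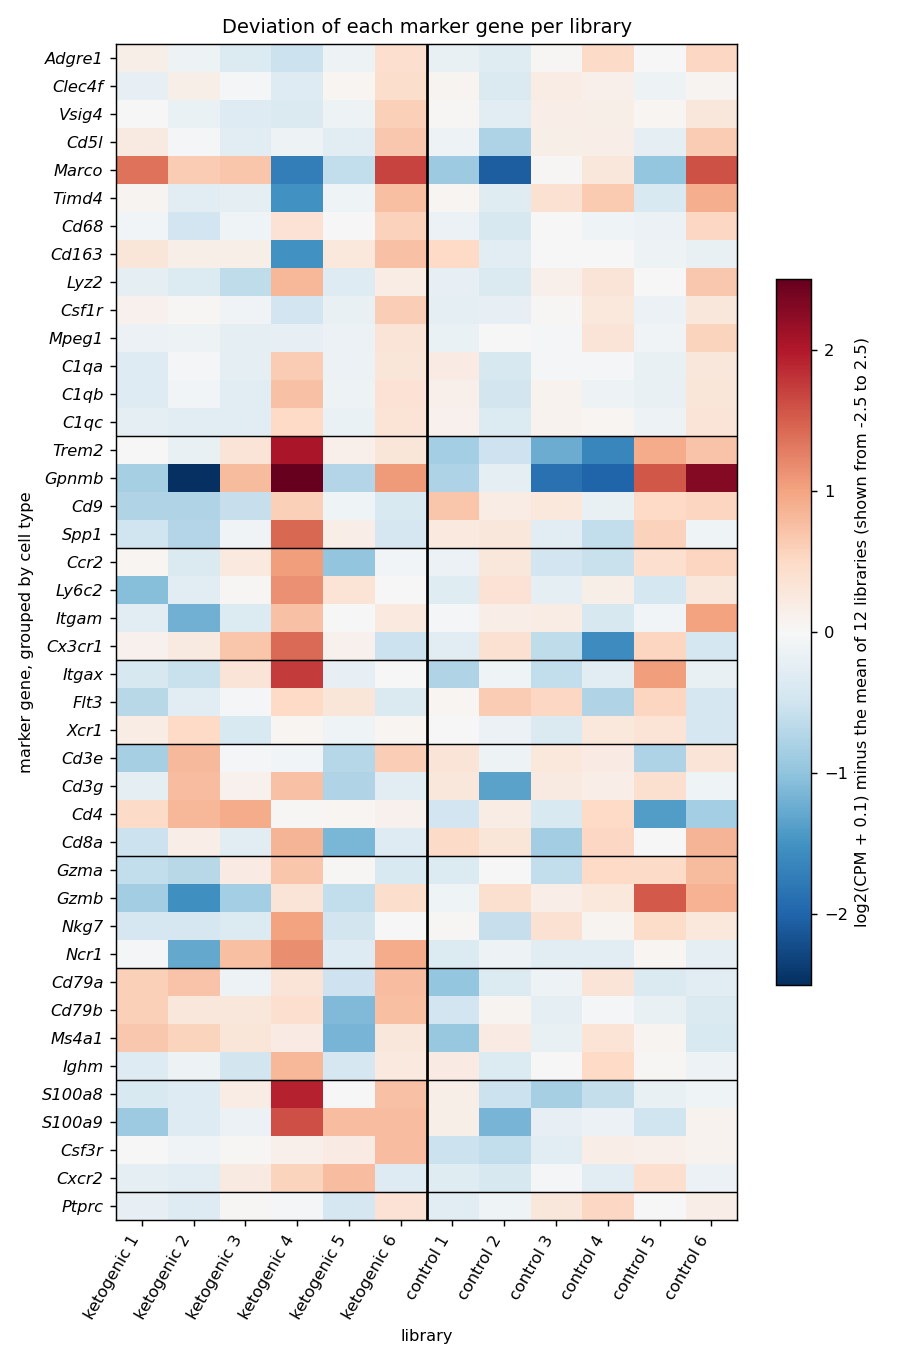
Log2(CPM + 0.1) of each of the 42 members (rows, by cell type) in each of the 12 libraries (columns, ketogenic left of control) minus the mean of that gene over the 12 libraries, in colour. Ketogenic 4 is above the mean for the lipid-associated macrophage, monocyte and neutrophil genes and below it for Marco, Timd4 and Cd163, and 0 members separate the 6 ketogenic from the 6 control libraries.

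The colour map of deviations shows that the high values of Trem2 and Gpnmb in ketogenic 4 recur at a lower level in control 5 and control 6. Ketogenic 6 had the highest level of Clec4f, Vsig4, Csf1r and Marco of the 12 libraries.

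Other genes linked to the same cells gave few calls. Among all genes tested, edgeR called 3.78%, and 16.7% had an unadjusted p under 0.05. These shares are the background for the counts of this list and of those that follow. The 8 lists of further macrophage genes, macrophage transcription factors and monocyte, dendritic cell, T and NK cell, B and plasma cell, neutrophil and general leukocyte genes held 116 tested genes, with a median log2 fold change of 0.06, and edgeR called 0 of them higher and 1 lower, with 12 at an unadjusted p under 0.05, 7 higher and 5 lower. The 1 called was Itgae, the CD103 integrin chain of some dendritic cells and T cells, which averaged 0.466 ± 0.0726 CPM in ketogenic livers and 1.01 ± 0.255 CPM in control livers (log2 fold change -1.11 ± 0.22, adjusted p = 0.0128, edgeR). Without ketogenic 4, Cd207, the lectin langerin, was also called lower, at a log2 fold change of -1.46 (adjusted p = 0.00332, edgeR). Some of the 116 genes stood far above most members in level. Fn1, listed with monocytes, averaged 1375 CPM in ketogenic livers and 1851 CPM in control livers. Xbp1 and Sdc1, listed with B and plasma cells, averaged 332 and 173 CPM in ketogenic livers and 449 and 213 CPM in control livers. Both were among the 5 lower at an unadjusted p under 0.05 (edgeR). The part of hepatocytes and other cells in these lists was not tested. The macrophage factors included Spi1, which codes for PU.1 and had a log2 fold change of -0.03, and Nr1h3, the oxysterol receptor LXR-alpha, with 0.01 (adjusted p = 0.967 and 0.974, edgeR), and -0.19 and -0.02 without ketogenic 4.

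Further genes linked to lipid-associated macrophages, all of which hepatocytes or other cells of the liver can express too, had 1 of 14 called higher and 0 lower. Their median log2 fold change was 0.25 with all libraries. The 1 was Cd36, a fatty acid transporter, which averaged 177 ± 51.0 CPM in ketogenic livers and 49.6 ± 10.4 CPM in control livers (log2 fold change 1.83 ± 0.20, adjusted p = 0.000226, edgeR). Lpl, the lipoprotein lipase, averaged 54.3 ± 18.8 CPM in ketogenic livers and 37.1 ± 6.31 CPM in control livers, and Lgals3, or galectin-3, 11.5 ± 12.1 CPM in ketogenic livers and 7.68 ± 3.16 CPM in control livers (adjusted p = 0.189 and 0.637, edgeR). The log2 fold change of Lgals3 was 0.58, and -0.21 without ketogenic 4. Several other genes of this list were also lower without ketogenic 4, at 0.63 for Mmp12, 0.04 for Anxa5 and -0.29 for Capg. With all libraries these 3 were at 1.72, 0.44 and 0.29. Without ketogenic 4, Cd36 was at 1.72 and Lpl at 0.52, where Lpl was at 0.55 with all libraries. Fabp5 rose from -0.34 to -0.20 when ketogenic 4 was left out.

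Ligands and partners of the members were tested as a list of 27 genes, with 0 called higher and 1 lower by edgeR and 2 at an unadjusted p under 0.05. The 1 called was C1s1, a protease that binds C1q in the complement complex and is made mainly by hepatocytes. C1s1 averaged 249 ± 33.0 CPM in ketogenic livers and 368 ± 46.5 CPM in control livers (log2 fold change -0.56 ± 0.12, adjusted p = 0.0182, edgeR), while its partner protease C1ra averaged 217 ± 16.5 CPM in ketogenic livers and 269.8 ± 28.2 CPM in control livers (log2 fold change -0.31, adjusted p = 0.104, edgeR). Csf1 and Il34, the ligands of Csf1r, had log2 fold changes of 0.27 and 0.22 (adjusted p = 0.498 and 0.805, edgeR), and 0.25 and -0.05 without ketogenic 4. Ccl2, the ligand of Ccr2, was 0.419 to 5.53 CPM in ketogenic livers and 0.391 to 4.86 CPM in control livers, a log2 fold change of 0.74 (adjusted p = 0.661, edgeR) and 0.32 without ketogenic 4. Cx3cl1, the ligand of Cx3cr1, Flt3l, the ligand of Flt3, and Cxcl1, a ligand of Cxcr2, had log2 fold changes of 0.32, -0.13 and 0.68 (adjusted p = 0.684, 0.860 and 0.823, edgeR), and 0.13, -0.35 and 0.89 without ketogenic 4. The ligand genes Csf3 and Xcl1 had too few counts to be tested.

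Markers of other cells that whole liver holds were read beside these genes. Of 10 hepatocyte genes 0 were called higher and 1 lower, Fgb, the fibrinogen beta chain (log2 fold change -0.91 ± 0.21, adjusted p = 0.0273, edgeR). The median log2 fold change of the 10 was -0.27, and 4 had an unadjusted p under 0.05, 1 higher and 3 lower (edgeR). Of 40 genes of endothelial cells (13), stellate cells and fibroblasts (12), red cells and platelets (7), mesothelium (3) and bile ducts (5), edgeR called 0, with 4 at an unadjusted p under 0.05. Of the mast cell, basophil and eosinophil genes 1 was tested and not called, and of 4 tested adipocyte genes 1 was, Cfd, or adipsin, at a log2 fold change of 5.67 (adjusted p = 0.00946, edgeR). The adipocyte-defining gene Adipoq was 0 to 0.0293 CPM in ketogenic livers and 0 to 0.0306 CPM in control livers. The bile duct genes, among which Spp1 is counted, summed to 41.1 to 149.8 CPM in ketogenic livers and 40.4 to 86.6 CPM in control livers, and Epcam, an epithelial antigen of bile duct cells, was 1.51 to 6.56 CPM in ketogenic livers and 0.986 to 3.76 CPM in control livers. The part of these cells in the values of Spp1 and Cd9 was not tested.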

How the data were processed

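Total RNA of mouse liver was extracted with a column kit (RNeasy) and made into libraries with a NEBNext Ultra kit, per the labels' protocols. A single table was deposited, holding raw counts (whole numbers per gene and library, not normalized) with symbols and coordinates. Without stating roles, the submitters' processing notes name Cufflinks, StringTie 1.3.4d, HISAT2 2.1.0 and fastp 0.19.3. The sources used here do not give the counting program, its strand setting or the genome build. GENCODE M21 (GRCm38) holds 26929 of the gene IDs and places 569 of them at the start and end that the table gives, so its coordinates are printed without a build. Overlapping genes (Csf1r and Hmgxb3, Spp1 and Gm42793, Cx3cr1 and Gm33858, Cd3e and Gm48719 among the members) and near copies (Lyz2 and Lyz1) can share reads. Library totals were 30.2 to 33.5 M counts, and no 2 libraries of 1 diet agreed within sampling noise (chi-square at least 40.8 per degree of freedom).

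The 42 members, the other gene lists and the tests were chosen with earlier results of these data known. The text names all members, the called genes of the other lists (up to 3 a list) and further genes of those lists chosen for their role after their values were seen. The comparison of diets used edgeR 4.0.16 (R 4.3.3). In it, filterByExpr by diet left 13995 genes, which were scaled with TMM factors and fitted with the robust quasi-likelihood model with diet as the only term. Adjusted p-values are Benjamini-Hochberg values over all genes tested, and a gene was called under 0.05. CPM values use TMM-scaled library sizes. The standard error is the log2 fold change divided by the square root of F, and 95% intervals use the degrees of freedom of the test. Levels per kb divide CPM by merged exon length from GENCODE M21, matched by ID for 42 members and 13975 genes tested. Ncr1 was tested with an exact permutation test. For 12 pairs of genes, log2(CPM + 0.1) was correlated over the 12 libraries with 100000 permutations, or all permutations within a diet. The edgeR, limma-voom and DESeq2 fits of the diets were tested on simulated data. Alternatives were DESeq2 1.42.0, limma-voom (limma 3.58.1), other scalings and filters, an adjusted p under 0.01, the replicate number as a block, each library left out and, chosen after seeing the data, removal of each library's trend on exon length (a spline with 4 degrees of freedom), alone and with the block.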

Additional observations from a re-analysis of the deposited data

Results flagged for a closer look

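In 14 of 84 groups (each member in each diet), the highest or lowest library was separated from the nearest by a larger part of the range of the 6 libraries than Dixon's 95% bound allows. For independent groups of normally distributed values, chance alone would flag about 1 group in 20. The groups here share the same libraries and hold CPM values that were not put on a log scale. All 14 flagged values were high ones, so the count cannot be compared with that share. Of the 14, 7 were high values of ketogenic 4. They were Trem2 at 12.6 CPM (next 3.74), Gpnmb at 15.6 CPM (next 2.47), Spp1 at 128 CPM (next 52.3), Cd9 at 49.98 CPM (next 30.6), S100a8 at 6.20 CPM (next 2.68), Itgax at 5.92 CPM (next 2.12) and Nkg7 at 1.66 CPM (next 0.782). High values of ketogenic 6 made 3 more, Vsig4 at 57.0 CPM (next 38.2), Mpeg1 at 103 CPM (next 75.4) and Csf3r at 6.53 CPM (next 4.40). In control livers the values were Marco at 23.3 CPM (next 9.28) and Itgam at 1.44 CPM (next 0.773) in control 6, Itgax at 3.58 CPM (next 1.56) in control 5 and Cd163 at 56.9 CPM (next 40.6) in control 1. What sets these libraries apart was not tested.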

How the results depend on the processing

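The count of members called higher was 0 under every alternative run. The count called lower was 0 in the main fit and 0 to 1 when each library was left out in turn. It was 1 with the length trend removed, 0 with the trend removed and the replicate block, and 0 under the remaining alternatives. The 1 gene was Cd9 both times, without ketogenic 4 and with the trend removed (log2 fold change -0.68, adjusted p = 0.034, edgeR). With the trend removed and the replicate block, its adjusted p was 0.0911, and over its 22 alternatives it ran from 0.00786 to 0.290. The adjusted p ran from 0.0967 to 0.381 for Gzmb, 0.107 to 0.408 for Cd4, 0.142 to 0.454 for Cd79a and 0.116 to 0.438 for S100a8. The replicate block called 0 members. Same-numbered libraries of the diets had correlations of their deviations of -0.296 to 0.344, 3 of 6 over 0.1, and 2 of 6 ketogenic libraries correlated best with their own number, so the numbers were not taken to pair livers. The sign turned for Clec4f with the trend removed (-0.000201) and also with the block (-0.0206), C1qc (0.0572) and Ighm (0.0346) scaled by library size only, and Gpnmb, at 0.90 in the fit of all libraries, with trend removed and block (-0.00807). Spp1 was -0.0469 in limma-voom, -0.0945 with the block, -0.0147 with the trend removed and -0.11 with both. Ccr2 was -0.0238 in limma-voom, -0.0212 with the block and -0.0144 with both, and Cd3e -0.0998 in limma-voom, -0.073 with the block and -0.0865 with both. The cause of these changes was not tested. With each library left out, 24 members kept their sign and 17 did not, with log2 fold changes of -0.0749 to 0.0815 (Clec4f), -0.12 to 0.20 (Cd5l), -0.0165 to 0.24 (Cd68), -0.0131 to 0.33 (Cd163), -0.12 to 0.11 (Csf1r), -0.0556 to 0.16 (C1qa), -0.042 to 0.20 (C1qb), -0.14 to 0.0514 (C1qc), -0.72 to 1.67 (Gpnmb), -0.36 to 0.24 (Spp1), -0.24 to 0.21 (Ccr2), -0.13 to 0.37 (Ly6c2), -0.13 to 0.81 (Itgax), -0.0077 to 0.22 (Xcr1), -0.23 to 0.19 (Cd3e), -0.060 to 0.30 (Cd3g) and -0.27 to 0.0687 (Ighm). The correlation of Ccr2 and Ly6c2 ran from -0.122 to 0.540. Those of S100a8 and S100a9 (without ketogenic 4), Clec4f and Vsig4 (without ketogenic 6) and Clec4f and Timd4 (without either, or scaled by library size only) lost the threshold. That of Gzma and Gzmb passed it without ketogenic 3 or control 3, and that of Clec4f and Adgre1 without ketogenic 1, ketogenic 2 or control 6, with deviations from the diet means (r = 0.646) and with the trend removed (r = 0.720). A minimum of 1 CPM in 6 libraries left 28 members tested. Depth limited the genes under 1 CPM. Intervals and tests cover 6 livers a diet.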
